A study of Myotis pilosus with 4 samples.

Results

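MiRNA tags that carried 1 extra base at their 3′ end were examined in brain and white adipose tissue (WAT) from hibernating and active bats of the species *Myotis ricketti* (listed by GEO as *Myotis pilosus*). A tag is a distinct small RNA sequence with its read count. A tag was taken when it equalled the listed mature sequence of a conserved miRNA plus exactly 1 base at the 3′ end and was not itself in the list. This gave 334 of the 2315110 unique tags, out of a list of 119 conserved miRNAs. Each library was made from the pooled RNA of 3 adult bats, and there was 1 library per group. HB (brain) and HA (WAT) came from bats in deep hibernation, with a body near 9°C in surroundings of 7°C. AB (brain) and AA (WAT) came from active bats, called aroused in the sample labels, with a body near 36°C in surroundings of 21°C. The active bats were caught in autumn and the hibernating bats at the end of winter, so state, season and any batch of preparation cannot be told apart. The libraries held between 10007650 (AB) and 12159756 (HB) clean reads.

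A miRNA is cut from a hairpin precursor, and its mature form is not always of a single length. The 3′ end can be longer because the enzymes Drosha or Dicer cut at a neighbouring position, in which case the extra base is the next one of the hairpin. It can also be longer because a terminal nucleotidyl transferase has added a base, most often A or U, which reads as T in the cDNA. Such additions are known to alter the stability or the loading of some miRNAs. Bases 2 to 8, called the seed, pair with the target mRNA and are the same in the exact and the extended tag. No bat genome or hairpin was used here, so an added base was called the next base of a longer RNA only where another listed mature sequence continued the exact one.

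The sequences below carry most of the extended reads and show which 3′ ends the results turn on. The seed and, where present, the added base are in capitals. The first 6 are the miRNAs with the seed GAGGTAG, which is the seed of the let-7 family, a set of miRNAs known for promoting differentiation and for targeting growth and glucose metabolism genes. The names are those of the study's list.
miR-7d-5p: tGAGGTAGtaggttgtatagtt
miR-7e-5p: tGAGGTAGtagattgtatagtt
miR-7b-5p: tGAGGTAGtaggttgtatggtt
miR-7f-5p: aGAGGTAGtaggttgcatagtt
miR-7g-5p: tGAGGTAGtagtttgtacagtt
miR-7a-5p: tGAGGTAGtaagttgtattgt
miR-7d-5p with added A: tGAGGTAGtaggttgtatagttA
miR-7d-5p with added T: tGAGGTAGtaggttgtatagttT
miR-124a-3p: tAAGGCACgcggtgaatg
miR-124a-3p with added A: tAAGGCACgcggtgaatgA
miR-124a-3p with added C: tAAGGCACgcggtgaatgC
miR-100-5p: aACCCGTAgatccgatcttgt
miR-100-5p with added G: aACCCGTAgatccgatcttgtG
miR-199-3p: aCAGTAGTctgcacattggtt
miR-199-3p with added A: aCAGTAGTctgcacattggttA
miR-24-3p with added T: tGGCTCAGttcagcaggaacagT
Of the 6 let-7 sequences, 5 end in a pair of T, and miR-7a-5p is the exception. miR-124a-3p is listed at 18 nt, which is the shortest tag length in the files.

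Of the 476 possible additions, 334 were sequenced and 1 was left out because it is itself listed, namely miR-574b-5p plus T, which is miR-574a-5p. Extended tags were found for 112 of the 119 conserved miRNAs. The 7 without one had at most 25 exact reads over the 4 libraries. HB held 268 of the extended tags, AB 268, HA 224 and AA 235, and 165 were found in all 4 libraries. They had 3307373 reads in all, of which the 10 most abundant tags took 81.7%, while 30 tags had a single read. By added base there were 100 tags with A, 98 with T, 69 with G and 67 with C. Sums over miRNAs therefore describe a few abundant miRNAs, and each sum is followed below by the miRNAs that made it.

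Tags with 1 added base took 26.1% (HB), 25.7% (AB), 30.3% (HA) and 27.9% (AA) of the exact plus extended reads. Added A took 12.1% (HB), 8.33% (AB), 15.1% (HA) and 11.3% (AA), and was higher in the hibernating library of each tissue. Added C took 7.61% (HB) and 6.86% (AB) of the brain reads, against 0.804% (HA) and 0.495% (AA) of the WAT reads. Brain and WAT did not overlap in this sum of added C. The same held for added T, for added G by little (7.71% in AB, 7.72% in HA) and for all bases together, but not for added A. Added G took 3.34% (HB), 7.71% (AB), 7.72% (HA) and 11.6% (AA), and was lower in the hibernating library of each tissue. Added T took 3.04% (HB), 2.84% (AB), 6.64% (HA) and 4.55% (AA). At these depths the exact (Clopper-Pearson) 95% intervals were narrow, for example 12.0 to 12.1% for added A in HB. They speak of sampling of reads alone. They may be too narrow even for that, because reads copied by PCR from the same molecule are not independent. With 1 library per group there was no replicate spread to set a difference against, so no p-value is given and a difference was called by its size, a log2 ratio of the shares of 1 or more.

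**Figure D1:**
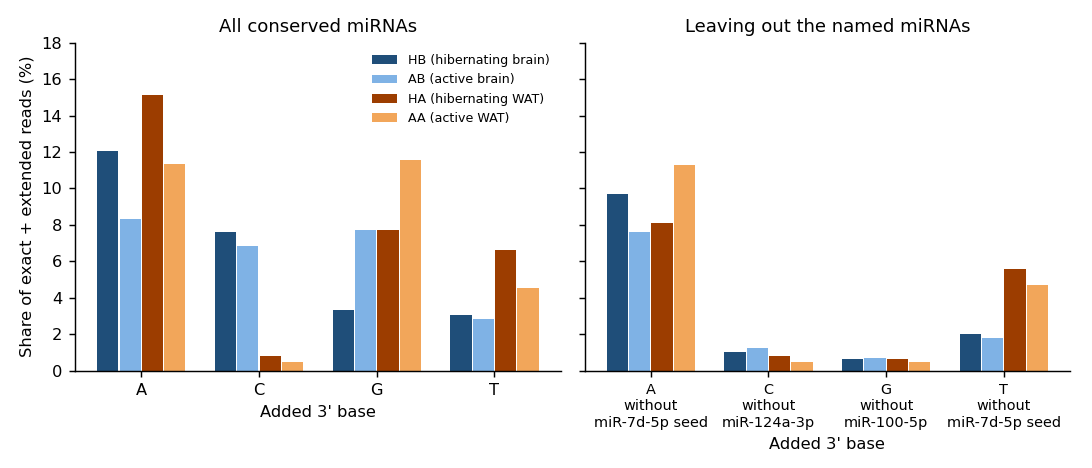
Share of exact plus extended reads (%, y axis) that carried each added 3′ base (x axis) in the 4 libraries, 1 bar per library. On the left all 119 conserved miRNAs are summed; on the right the miRNAs named under the axis are left out, and the added G of all 4 libraries then lies between 0.489% and 0.687% while added C lies between 0.491% and 1.21%.

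A few miRNAs made these sums. miR-100-5p held 93.0% of all reads with an added G, miR-124a-3p held 82.7% of those with an added C, and miR-124a-3p, miR-7d-5p and miR-199-3p held 24.8%, 18.4% and 17.5% of those with an added A. Without miR-100-5p, added G lay between 0.489% (AA) and 0.687% (AB), and the log2 ratio of hibernating over active went from -1.21 to -0.14 in brain and from -0.58 to 0.41 in WAT. Without miR-124a-3p, added C was 1.03% (HB), 1.21% (AB), 0.797% (HA) and 0.491% (AA). The low added G of the hibernating libraries thus rested on miR-100-5p. Its own share with an added G was lower in HB (29.9%) than in AB (50.7%), but not in HA (57.6%) against AA (55.2%). In WAT it made up less of the exact plus extended reads, 269376 of 2169771 in HA against 670725 of 3313646 in AA. Added C was still higher in brain than in WAT without miR-124a-3p, but by far less.

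The leading added base differed between miRNAs, and some were split between bases. The extended reads of miR-130-3p, for example, were 50.3% A and 48.7% T. Among the 66 miRNAs with 100 or more extended reads, the leading base was A for 26, T for 23, G for 10 and C for 7. The leading base took 90% or more of the extended reads of 7 of the 10 miRNAs led by G and of 9 of the 23 led by T, but of 5 of the 26 led by A. Between HB and AB, 54 of 58 miRNAs with 30 or more extended reads in each library had the same leading base, and the other 4 were all led by A in HB (miR-124b-3p, miR-140-3p, miR-154-3p and miR-7f-5p). Between HA and AA it was the same for 40 of 47, and 5 of the other 7 were led by A in HA. miR-24-3p, which is found in most tissues, was extended by T in 95.1% of its extended reads, and the extended share was 57.7% (HB), 52.9% (AB), 66.5% (HA) and 57.0% (AA).

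The 6 miRNAs with the let-7 seed carried an added A about 2 times as often in the hibernating as in the active library of both tissues when they were summed. In that sum, added A took 21.4% (HB) against 10.1% (AB) in brain and 26.1% (HA) against 11.4% (AA) in WAT, and the log2 ratios were 1.09 and 1.20. All 6 had a ratio above 0 in each tissue, although for miR-7a-5p in WAT (0.80) the counting interval, -0.47 to 2.06, included 0. The levels of the group as a whole moved less in WAT than in brain, with 57739 RPM (exact plus extended reads per 1000000 clean reads) in HB and 95197 in AB, against 73466 in HA and 78354 in AA.

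miR-7d-5p plus A, the most abundant of these tags, had 67457 (HB), 41120 (AB), 105921 (HA) and 40931 (AA) reads. This was 19.96% (HB), 9.58% (AB), 23.1% (HA) and 9.62% (AA) of the exact plus extended reads of miR-7d-5p. Both hibernating libraries were above both active ones, and the latter were nearly equal. In RPM, exact miR-7d-5p was at 20118 (HB), 36452 (AB), 27103 (HA) and 32022 (AA), while miR-7d-5p plus A was at 5548 (HB), 4109 (AB), 9177 (HA) and 3579 (AA). The exact tag was lower and the extended tag higher in the hibernating library of each tissue.

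miR-7e-5p had the highest added A of the group, with 38.7% (HB), 23.9% (AB), 43.1% (HA) and 27.9% (AA). miR-7b-5p had 13.2% (HB), 7.46% (AB), 21.2% (HA) and 7.48% (AA). In miR-7f-5p it was 11.6% (HB), 4.46% (AB), 12.0% (HA) and 5.35% (AA). The groups kept the same order in these 3, hibernating above active in each tissue. miR-7g-5p had 18.4% (HB), 9.08% (AB), 14.5% (HA) and 10.3% (AA). In brain, exact miR-7f-5p was at 2796 RPM in HB against 13448 in AB, and its tag with an added A was also lower, at 409 against 683 RPM, so in that case the share was higher while the level was lower.

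miR-7a-5p differed from the others. Added T was its main extension, with 202 (HB), 489 (AB), 45 (HA) and 159 (AA) reads, or 22.8%, 46.8%, 28.1% and 38.1% of its reads. Its added T was lower in the hibernating library of each tissue, although its intervals overlapped in WAT (21.3 to 35.8% in HA, 33.4 to 43.0% in AA). Added A of miR-7a-5p rested on 34, 18, 8 and 12 reads. For the other 5, added T was higher in the hibernating library of each tissue, although by less than the counting error for miR-7g-5p in brain (6.60% against 6.44%). Summed over all 6, added T was 7.02% (HB), 5.34% (AB), 8.28% (HA) and 4.21% (AA).

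**Figure D2:**
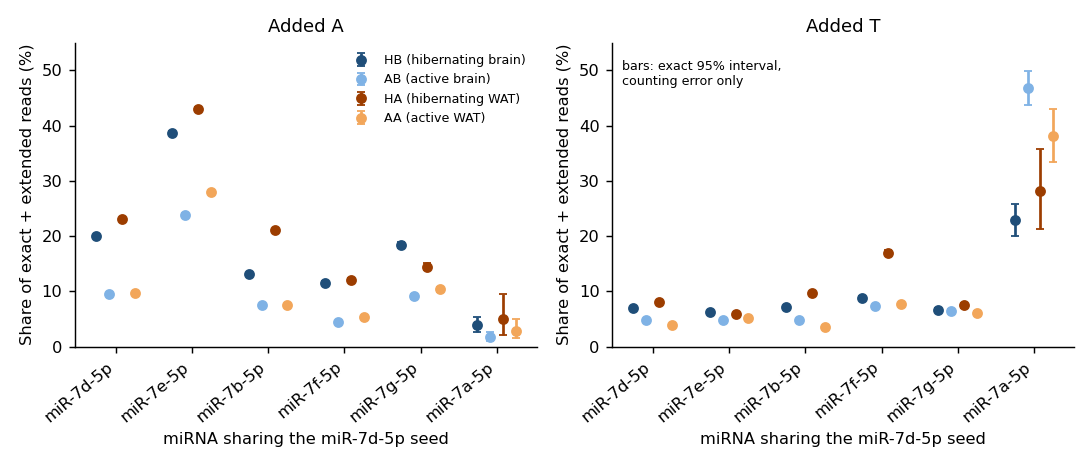
Share of exact plus extended reads (%, y axis) with an added A (left) and an added T (right) for the 6 miRNAs with the seed of miR-7d-5p, 1 point per library with its exact 95% interval for counting error. Added A of each miRNA was higher in HB than in AB and in HA than in AA, for miR-7a-5p in WAT by less than the counting error. miR-7a-5p stands apart by its added T.

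miR-124a-3p, an abundant miRNA of neurons, was the other main source of added A, and it held 24.5% of all extended reads. miR-124a-3p plus A had 210289 (HB), 134000 (AB), 136 (HA) and 89 (AA) reads, and miR-124a-3p plus C had 234851, 191718, 155 and 135. As shares, added A took 23.7% (HB), 16.99% (AB), 22.8% (HA) and 16.95% (AA). The shares were nearly the same in brain and in the few WAT reads, with 13.8 to 20.4% as the interval in AA. Added C took 26.5% (HB), 24.3% (AB), 26.0% (HA) and 25.7% (AA). miR-124b-3p is listed as the same sequence continued by C, so the added C is the next base of a longer listed miRNA. The same holds for the G added to miR-218b-5p and to miR-100-3p, which made up 95.7% and 95.5% of their extended reads. The log2 ratio of hibernating over active for added A was 0.48 in brain (0.47 to 0.49 by counting error) and 0.43 in WAT (0.082 to 0.78). In bulk tissue, fewer cells of a type and less RNA per cell cannot be told apart, whereas these shares were taken within 1 miRNA.

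miR-100-5p, a miRNA of the family of miR-99, had about as many extended as exact reads. Its exact tag had 221291 (HB), 220756 (AB), 111620 (HA) and 297206 (AA) reads, and the tag with an added G had 95244, 229576, 155155 and 370066 reads. Added G thus took 29.9% (HB), 50.7% (AB), 57.6% (HA) and 55.2% (AA). HB was the low library and the other three lay close together. The log2 ratio of the share with any added base was -0.74 in brain (-0.75 to -0.74 by counting error) and 0.073 in WAT (0.067 to 0.078). Added A of miR-100-5p was far rarer, with 0.606% (HB), 0.398% (AB), 0.743% (HA) and 0.371% (AA), and it was higher in the hibernating library of each tissue as in the let-7 group.

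miR-199-3p, a miRNA of fibroblasts and other mesenchymal cells, was mostly a WAT miRNA here. Its tag with an added A had 3053 (HB), 3377 (AB), 60427 (HA) and 176104 (AA) reads, and the share was 29.1%, 27.0%, 23.5% and 24.9%. The ratio of hibernating over active was 0.11 in brain and -0.08 in WAT, close to even. In AA this tag made up 46.9% of all reads with an added A, against 18.4% in HA. Without miR-199-3p, added A over all miRNAs was 14.0% (HA) against 7.65% (AA), and the log2 ratio was 0.87 in place of 0.42. miR-378-3p, a miRNA hosted by the metabolic coactivator gene Ppargc1b and named here after its values were seen, had an added A in 62.6% (HB), 37.3% (AB), 43.4% (HA) and 25.3% (AA) of its reads. miR-140-3p, a cartilage and mesenchymal miRNA, had a mixed end, with A in 16.7% (AB) to 18.6% (HB) of its reads, and with C in 23.1% of them in AB and 14.7% to 15.4% in the other libraries.

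For 23 miRNAs the extended tags had more reads than the exact tag, and 16 of them had 100 or more extended reads. miR-365-5p was the most extreme of those 16, with 224 exact and 2309 extended reads, 98.4% of the latter with T. miR-486-5p, an erythroid and muscle miRNA, had 4033 exact and 9032 extended reads, 87.8% of them with G, and its extended share was 50.7% (HB), 68.3% (AB), 68.0% (HA) and 71.2% (AA). miR-455-3p had an extended share of 51.6% (HB), 49.8% (AB), 88.9% (HA) and 68.4% (AA). Others of the 23 were miR-24-3p, miR-30c-3p, miR-135-3p, miR-129-5p, miR-744-5p, miR-551-3p and miR-6119-3p. These are sums over the 4 libraries. Of the 16 miRNAs, 6 had more extended than exact reads in every library, and miR-30c-3p, for example, had 434 exact and 310 extended reads in HB but 542 and 674 in AB.

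Added A was higher in the hibernating library for most miRNAs that could be compared, which required 100 or more exact plus extended reads in each library and 10 or more reads with the base in both together. In brain 43 of 56 miRNAs had a log2 ratio above 0, with a median of 0.42, and in WAT 39 of 46, with a median of 0.63. By size 14 (25.0%) were higher and 2 lower in HB, where the background of all variant tags of conserved miRNAs, each over tag plus exact reads as described below, had 28.1% higher and 9.41% lower. In HA 12 (26.1%) were higher and 0 lower, against a background of 41% and 7.71%. Neither count stood above its background. One of the 14 in brain, miR-218a-5p, had 12 reads in HB and 0 in AB, for which the floor of 3 reads was used. Of the 38 miRNAs compared in both tissues, 9 were higher in HB and 9 in HA. The 4 higher in both were miR-7d-5p, miR-7f-5p, miR-148-3p and miR-222-3p, which is 44.4% of each list of 9, and whether this overlap passes that of unrelated lists was not tested. Of the pair outside the let-7 group, miR-222-3p rested on 20, 16, 232 and 87 reads with an added A in HB, AB, HA and AA and miR-148-3p on 10, 5, 20 and 8. Outside the let-7 group the ratio was above 0 for 37 of 50 miRNAs in brain and 33 of 40 in WAT. The sum over those miRNAs was 9.67% (HB), 7.61% (AB), 8.08% (HA) and 11.3% (AA). In WAT the sum (log2 ratio -0.48) and the median miRNA (0.60) thus had opposite signs. Without miR-199-3p as well the sum was still lower in HA (4.36%) than in AA (5.69%). This remaining sum held miR-378-3p, with 10523 (HA) and 66266 (AA) reads with an added A. The exact plus extended reads of miR-378-3p were 24242 (HA) and 261678 (AA). Its own share with an added A was higher in HA (43.4%) than in AA (25.3%). The sum without miR-378-3p was not worked out. Over the 44 miRNAs with enough reads in all libraries, the median share with an added A was 4.65% in HB and 5.96% in AB, the reverse of the sum in brain. In WAT that median was 8.48% in HA and 5.41% in AA.

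**Figure D3:**
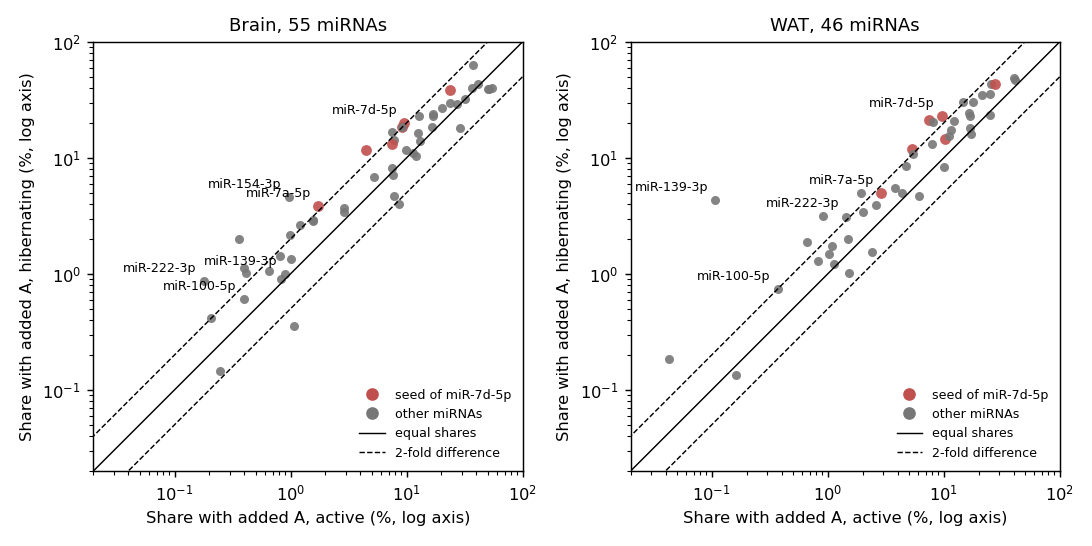
Share of reads with an added A in the hibernating (y axis, %, log axis) against the active library (x axis, %, log axis), 1 point per miRNA, for 55 miRNAs in brain and 46 in WAT, with 1 brain miRNA at 0 in AB not drawn. Most points lie above the line of equal shares, and so do all 6 let-7 miRNAs (red) in both tissues, 4 of them at or beyond the upper dashed line of a 2-fold difference in brain and 3 in WAT.

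These counts were read against other sequence variants of the same miRNAs. All tags that held bases 2 to 17 of a single conserved miRNA were taken, each as tag over tag plus exact reads. The extended tags were kept in this set even where more than 1 miRNA shares those bases. The log2 ratio was 1 or more for 832 of 2966 tags of the set in HB over AB and for 1341 of 3270 in HA over AA. On that measure 19 of 162 extended tags (11.7%) were higher in HB and 31 of 134 (23.1%) in HA, and 6 and 3 were lower. The sets were not matched for read depth, and the difference of these percentages from the background was not tested. Tags with an added A had a median log2 ratio of 0.37 in brain and 0.63 in WAT, against 0.35 and 0.71 for all variant tags other than the 1-base additions. The medians for added C, G and T were -0.17, 0.049 and 0.19 in brain and 0.56, 0.39 and 0.49 in WAT, all below that for added A. Counted per miRNA, 0% (C), 6.25% (G) and 3.77% (T) were higher in HB against 25.0% for A, and 20.8%, 12.0% and 18.6% in HA against 26.1% for A. Added A thus had the highest median of the 4 bases in both tissues and lay near the median of the other variant tags, and none of these differences was tested. In the let-7 group, the median of the tags with an added A was 0.94 in brain and 0.98 in WAT, and that of 438 and 364 other variant tags of the group was 1.08 and 0.50. These others came from 4 of the 6 miRNAs, since miR-7b-5p and miR-7d-5p share bases 2 to 17.

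With all 4 bases together fewer miRNAs differed. The share with any added base was 1 or more higher on the log2 scale for 3 of 67 miRNAs in HB over AB and for 5 of 49 in HA over AA, and 0 were lower in either. The share of tags that were 1 base shorter, measured the same way, was higher for 5.08% and lower for 1.69% of miRNAs in brain, and higher for 2.13% and lower for 4.26% in WAT. The brain count (4.48%) was near that background, and the WAT count (10.2%) was above it, with 3 of its 5 from the let-7 group. That background was itself small, 3 of 59 miRNAs higher in brain and 1 of 47 in WAT. Both counts were below the 28.1% (HB) and 41% (HA) of all variant tags, which are counted per tag and not per miRNA. None of these differences was tested. The 3 in brain were miR-544-5p, miR-154-3p and miR-218a-5p, of which miR-154-3p had most reads, 545 extended of 7522 in HB and 238 of 7249 in AB. Added A of miR-154-3p, a brain miRNA of the Dlk1-Dio3 cluster, had 347 reads in HB and 70 in AB, or 4.61% against 0.966%. The 5 in WAT were miR-139-3p, miR-365-3p, miR-7b-5p, miR-7d-5p and miR-7f-5p. miR-7b-5p had the share 31.1% in HA and 11.3% in AA, and miR-139-3p had 51 extended reads in HA and 19 in AA, or 8.56% against 2.04%. The lowest ratios were -0.86 in brain (miR-7a-5p, 26.7% against 48.5%) and -0.87 in WAT (miR-285-3p, 6.46% against 11.8%).

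Between tissues, the sum of added C differed most, with a log2 ratio of brain over WAT of 3.24 in the hibernating and 3.79 in the active bats. Without miR-124a-3p these became 0.37 and 1.30. The median share of added C over 44 miRNAs was lower in brain, at 0.0149% (HB) and 0.0457% (AB), than in WAT, at 0.0809% (HA) and 0.0512% (AA). Added T was lower in brain, with -1.13 in the hibernating and -0.68 in the active bats, and without miR-199-3p, which had most reads with T, these were -0.85 and -0.11. Added G was also lower in the sum, with -1.21 and -0.58, but without miR-100-5p the ratios were -0.061 and 0.49, so the direction turned in the active bats. The marker miRNAs gave the tissues as labelled, except that WAT held muscle miRNAs. The 4 brain markers had 80680 exact plus extended RPM in HB and 88376 in AB against 165 and 244 in HA and AA. The 3 muscle markers had 1986 and 1630 in brain but 18053 and 18681 in WAT, nearly all miR-1-3p. The 4 blood markers had 55.5 (HB), 152 (AB), 683 (HA) and 741 (AA). Of these 4, miR-486-5p, also a muscle miRNA, had most reads in WAT, with 5605 (HA) and 6128 (AA) exact plus extended reads. Blood and muscle therefore cannot be told apart in that sum. The 2 oligodendrocyte markers had 3932 and 5852 in brain and 1.56 and 2.71 in WAT. The part of these cell types in the tissue differences was not tested.

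The 3′ additions were set beside other changes of the same sequences. Tags 1 base shorter at the 3′ end took 30.9% (HB), 27.3% (AB), 26.3% (HA) and 32.8% (AA) of exact plus shorter reads. Shortening was thus higher in the hibernating library of brain and lower in that of WAT. Tags with 1 base added at the 5′ end were rarer, with 2.31% (HB), 2.13% (AB), 4.003% (HA) and 5.04% (AA). A single substituted base, which contains sequencing errors, took between 0.223% and 0.419% of reads at the fourth position from the 3′ end and between 5.10% and 8.27% at the last position, where a substitution equals a shortened tag plus 1 base. The 77 bat-specific miRNAs had 1 added base in 31.0% (HB), 32.1% (AB), 37.3% (HA) and 33.8% (AA) of their reads. Their added A had a log2 ratio of hibernating over active of 0.39 in brain and -0.18 in WAT. In WAT the sign was opposite to that of the sum over the conserved miRNAs (0.42). Without the let-7 group that sum had a ratio of -0.48, which is the same sign, although most single miRNAs outside that group were higher in HA.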

How the data were processed

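Small RNA of 4 libraries was sequenced on the Illumina/Solexa platform. Adapters, reads of poor quality and short reads were removed by the authors, who collapsed identical reads and deposited raw counts per tag, 18 to 30 nt long, without normalization. RNA of 3 bats was pooled per library; the RNA integrity number was 8.3 (HB), 8.1 (AB), 8.4 (HA) and 7.5 (AA). From the counts, the share of each added base was its reads over exact plus extended reads, summed over the 119 conserved of 196 listed miRNAs; the list gave sequences only. A pair of shares was compared as a log2 ratio with a log-ratio interval, and their difference called at 1 or more in size, with a floor of 3 reads for 0. Intervals are at the 95% level. Variant tags held bases 2 to 17 of 1 conserved miRNA, and the 1-base additions were kept even where those bases are shared. Named miRNAs were the 5 with most reads for each base, the seed group, the 5 highest and lowest ratios in each tissue and those with more extended than exact reads. Alternatives were the median over miRNAs, leaving out miRNAs, sequences under 20 nt or tags that continue another listed sequence, other read limits, correction for miscalls, thinning to the smallest depth and clean reads as denominator. The size call was tried on simulated counts with planted differences above the size limit. Sampling of reads was the only spread in them, so they cannot speak of variation between bats or libraries. Python 3.11.15, NumPy 2.4.6, SciPy 1.17.1 and Matplotlib 3.10.9 were used. The members, groups and lists were chosen with earlier results of these data known.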

Additional observations from a re-analysis of the deposited data

Results flagged for a closer look

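For 5 of the 42 miRNAs compared in both tissues the share with any added base moved in opposite directions between hibernating and active libraries in the 2 tissues, with counting intervals that left out 0; the difference between tissues was not tested, since each group was 1 library. The log2 ratio of hibernating over active was -0.74 in brain and 0.073 in WAT for miR-100-5p. It was -0.13 and 0.18 for miR-140-3p, whose added C was at 23.1% in AB and between 14.7% and 15.4% in the other libraries. It was -0.79 and 0.36 for miR-130-3p, with 102 extended reads in HB and 194 in AB against 1032 in HA and 1716 in AA. It was -0.37 and 0.19 for miR-142-5p, with 89 and 62 extended reads in HB and AB and 859 and 631 in HA and AA, and -0.14 and 0.75 for miR-3135-5p, with 475, 719, 252 and 1576; these last miRNAs were named after their values were seen.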

How the results depend on the processing

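No paired analysis was possible because each group was 1 library. Values are log2 ratios, hibernating over active (brain, WAT) or brain over WAT (hibernating, active). Leaving out miR-124a-3p, miR-199-3p or the let-7 seed was chosen after seeing the data. The ratio of the median shares over miRNAs, in place of their sums, reversed added A in brain (-0.36) and between tissues in active bats (0.14), C in brain (-1.62) and between tissues (-2.44 and -0.16), G between active tissues (0.11) and T in brain (-0.049), and weakened G (-0.42 in brain, -0.011 between hibernating tissues) and T (-0.64 there). Without the miRNA with most reads of the base, C in brain was -0.23 and between hibernating tissues 0.37, G was -0.14 in brain, 0.41 in WAT and -0.061 and 0.49 between tissues, A between active tissues -1.03 and T between hibernating tissues -0.85. Without sequences under 20 nt, C was -0.22 in brain and 0.38 between hibernating tissues, T in brain -0.047, A between active tissues -1.03 and G between hibernating tissues -0.83. Without tags that continue another listed sequence, C was -0.24 in brain and 0.043 and 0.99 between tissues. Without miR-124a-3p, C was -0.23 in brain and 0.37 between hibernating tissues, T in brain -0.049, A between active tissues -1.03 and G between hibernating tissues -0.79. Without the let-7 seed, A was -0.48 in WAT and 0.26 between hibernating tissues, C in brain -0.023 and T between active tissues -1.38. Without miR-199-3p, A between active tissues was 0.11 and T between hibernating tissues -0.85. As reads per 1000000 clean reads (RPM), which measures the level of extended reads and not a share, A was -0.21 in WAT and 0.26 between hibernating tissues, C -0.042 in brain, G -1.21 in WAT and -0.62 between hibernating tissues, and T -0.097 in brain, -0.079 in WAT and -0.54 between hibernating tissues. The numbers of miRNAs with more extension in HB (3) and HA (5) were 5 and 8 with a limit of 10 reads, with 1 lower in each, 1 and 3 with a limit of 1000, 0 in HB where the whole interval had to pass, and 5 and 3 in RPM, with 13 and 10 lower. On that level scale 20 named values reversed: in brain miR-199-3p -0.41, miR-7b-5p -0.013, miR-7f-5p -1.35, miR-485-3p -0.90, miR-139-3p -2.45, miR-285-3p 0.60, miR-135-3p -0.44, miR-181c-3p 0.20, miR-24-3p -0.80, miR-455-3p -0.12, miR-486-3p -0.85 and miR-551-3p 0.57; in WAT miR-199-3p -1.31, miR-3958-3p -0.57, miR-100-5p -1.26, miR-485-3p -0.75, miR-130-3p -0.75, miR-7c-5p 1.22, miR-455-3p -1.16 and miR-486-3p -0.51. In brain miR-185-5p (16 extended reads) reversed to 0.59 with tags of 10 or more reads and miR-139-3p (33) to -0.64 after thinning. The cause of these shifts was not tested beyond what each setting leaves out. With 1 library per group, depth limits only the counting error, and variation between bats could not be measured.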

Other observations

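Tags with AA added to a let-7 sequence followed the single A. Among the 6 miRNAs with that seed, the reads with an added AA made up 9.62% (HB), 4.57% (AB), 14.6% (HA) and 6.86% (AA) of the reads with A or AA, with 15999, 4586, 37857 and 7515 reads. Over all conserved miRNAs, AA was 18.5% (HB), 10.8% (AB), 28.5% (HA) and 15.8% (AA) of the reads with exactly 2 added bases. The let-7 reads are part of this sum, with 15999 of 37123 (HB), 4586 of 19157 (AB), 37857 of 56338 (HA) and 7515 of 27131 (AA) reads. It is therefore not a separate observation, and the share outside the let-7 group was not worked out. The commonest pair of bases was CT in HB (31.7%), GT in AB (25.0%), AA in HA (28.5%) and GT in the AA library (28.5%).

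Among bases added at the 5′ end, T was the most frequent in each library, with 1.66% (HB), 1.62% (AB), 3.46% (HA) and 4.73% (AA) of exact plus 5′-extended reads, while A was at 0.108%, 0.148%, 0.0294% and 0.0262%.

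MiRNAs grouped by their last listed base differed in what was added. Those that end in G had added A in 23.5% of reads in HB and added C in 26.1%, sums that miR-124a-3p leads. Those that end in C had added A in 29.4% (HB), 16.5% (AB), 32.2% (HA) and 24.5% (AA). miR-378-3p leads these sums, with 2864 (HB), 3120 (AB), 10523 (HA) and 66266 (AA) reads with an added A. Whether the last base matters apart from these miRNAs was not tested.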
